A study of Homo sapiens with 4 samples.

Results

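The Hippo pathway genes examined here were YAP1, WWTR1, TEAD1, TEAD2, TEAD3, TEAD4, LATS1, LATS2, CCN1 and CCN2, chosen by name. Each was measured by a single row of the array with 1 gene symbol, so all 10 of the 10 were found among 33616 genes. RNA came from SAS cells, a human tongue squamous carcinoma line grown with 10% fetal bovine serum, and was hybridized to 4 Clariom D arrays, whose probes cover genes and non-coding transcripts. The C6orf141 overexpression group (2 arrays) was a stable line, made by transfection with the pLVX-IRES-Neo vector holding full-length C6orf141 for 48 h and then kept under 1200 μg/mL G418 for 14 days. The control group (2 arrays) is called scrambled control in the sample labels, and the series title calls the overexpression a mimic, although the protocol describes a plasmid. The labels and methods leave unstated whether control cells carried the empty vector or saw G418, and whether the stable line was 1 clone or a pool. Separate cultures are not stated for either group, so each p-value reflects array-to-array spread alone, possibly technical.

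The Hippo pathway is a kinase cascade that restrains growth. Its upstream kinases activate LATS1 and LATS2, which phosphorylate the coactivators YAP (gene YAP1) and TAZ (gene WWTR1) and keep them out of the nucleus. Unphosphorylated YAP and TAZ enter the nucleus and bind TEAD1 to TEAD4, the DNA-binding partners that bring them to targets such as CCN1 (also named CYR61) and CCN2 (also named CTGF), which encode secreted matricellular proteins. Activity of YAP is thus set largely by phosphorylation and localization of the protein, which RNA arrays do not measure. In squamous epithelium YAP is linked to the proliferative basal layer.

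Of the 10 genes, 0 passed a test between C6orf141 overexpression and control cells. None had an adjusted p below 0.05 or an unadjusted p below 0.05 in limma. Among all genes 0% passed the adjusted threshold and 2.12% the unadjusted one, or 0.907% of the 16214 genes above the silent-gene level, which is defined below. The log2 differences of the 10 genes, overexpression minus control, ranged from −0.04 for TEAD4 to 0.46 for CCN1, with a median of 0.12, and 8 of the 10 were positive, among them LATS1 at 0.0015, whose sign turned with quantile normalization. Over all genes the median was −0.00045, and 49.9% were positive. The count of positive differences moved with 1 control array: without control replicate 2, 4 of the 10 were positive and the median was −0.06. Without that array 47.9% of all genes were positive, and 43.3% of those above the silent-gene level.

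The overexpressed gene checks the labels. C6orf141 had log2 signals of 11.36 and 12.04 on the overexpression arrays and 8.57 and 7.92 on the control arrays, a log2 difference of 3.46 (standard error 0.32, adjusted p = 0.215 from limma). With 2 arrays against 2, an exact permutation test of a single gene could not go below p = 0.333. The smallest difference that passed the unadjusted threshold in limma over all genes was 0.51 on the log2 scale, or 1.43-fold, and no smaller difference was called. The table holds no detection calls. The silent-gene level was therefore set at a log2 signal of 5.81, below which 95% of 400 olfactory receptor genes had their mean. All 10 Hippo pathway genes lay above it. TEAD4 and LATS2, with means of 6.82 and 7.05, were still under 7.72, the level that 95% of the 612 negative control rows did not exceed on the array where they were brightest, and so was CCN2 on control replicate 2. Of the squamous epithelial markers, 7 of the 10 listed were analysed. All 7 were above the silent-gene level, though KRT14, with a mean of 7.29, was under 7.72. The 7 included KRT5, CDH1 and DSG3, and none was called by limma. Their summed log2 signals were 92.33 to 92.73 on the overexpression arrays and 90.84 to 92.59 on the control arrays, lowest on control replicate 2. KRT6A, KRT17 and TP63 were not analysed here. Of the markers analysed for other cells, 0 of 5 endothelial ones were above the silent-gene level. Of the fibroblast ones 2 of 5 were, COL1A1 with a mean of 9.09 and COL1A2 with 6.93. Of the leukocyte ones 1 of 5 was, CD3E, with a mean of 5.87. Summed over the 5 leukocyte markers, the log2 signals were 26.38 to 26.88 on the overexpression arrays and 24.84 to 26.31 on the control arrays. For the fibroblast markers the sums were 29.39 to 29.998 on the overexpression arrays and 29.44 to 30.34 on the control arrays. The part of other cells in the results was not tested.

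**Figure D1:**
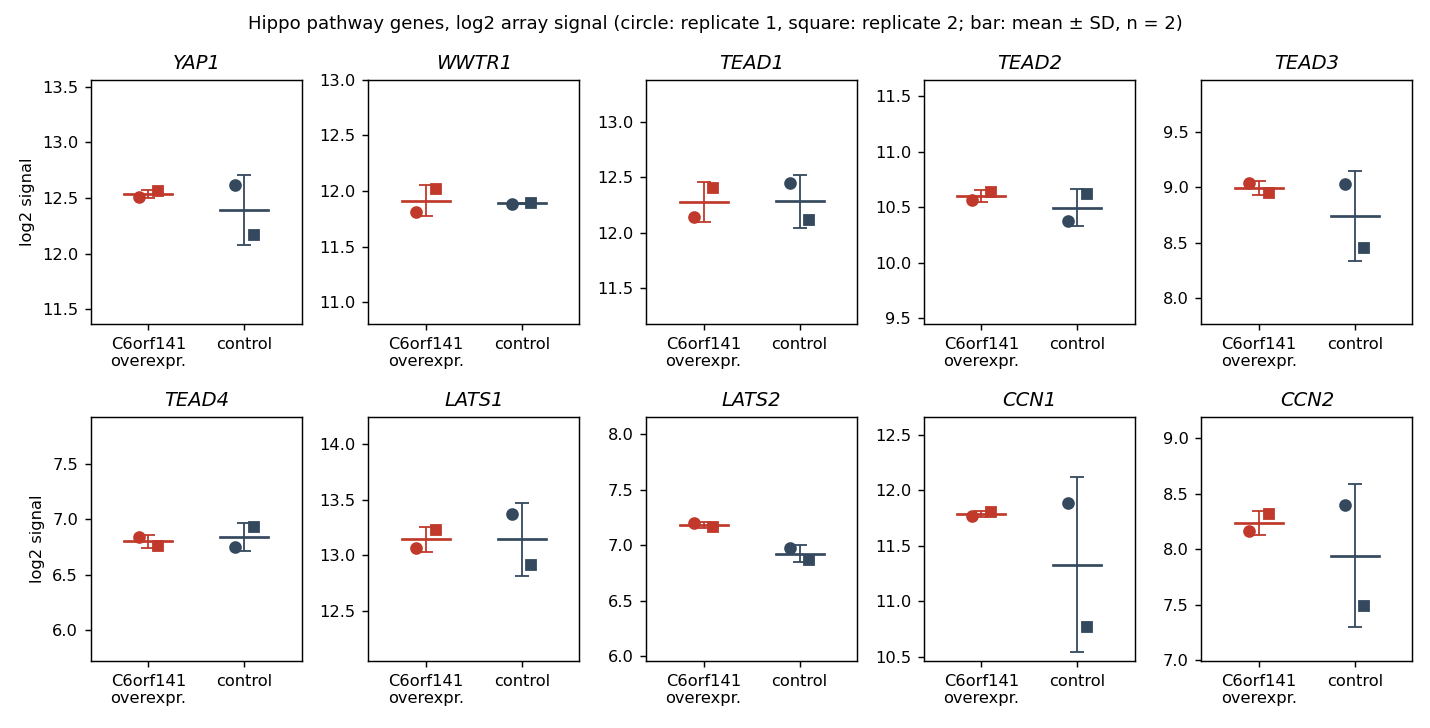
Log2 array signal of the 10 Hippo pathway genes in C6orf141 overexpression cells (red) and control cells (grey). Circles are replicate 1 and squares replicate 2 of a group, bars show the mean and SD (n = 2), and every panel spans the same number of log2 units. Only LATS2 has both overexpression arrays (7.20 and 7.17) above both control arrays (6.98 and 6.87), and CCN1 and CCN2 have 1 low control array each (10.77 and 7.49).

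The coactivator YAP1 had log2 signals of 12.51 and 12.56 on the overexpression arrays and 12.62 and 12.17 on the control arrays. The overexpression arrays lay between the control arrays. The log2 difference was 0.15 (standard error 0.25, 95% confidence interval −0.43 to 0.72, adjusted p = 1.00 from limma). WWTR1, which encodes TAZ, had 11.81 and 12.01 under overexpression and 11.89 and 11.89 in control cells. It was the most even of the 10 genes between the control arrays, with a log2 gap, replicate 1 minus replicate 2, of −0.0085. Its difference was 0.02 (standard error 0.23, 95% confidence interval −0.50 to 0.55). The upper bounds of both coactivators lay above 0.51, the smallest difference called over all genes.

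The TEAD factors bind DNA, and YAP and TAZ act through them. TEAD1 had log2 signals of 12.15 and 12.40 on the overexpression arrays and 12.45 and 12.12 on the control arrays. Both arrays of each group thus lay in the same range, and the log2 difference was −0.01 (standard error 0.24, 95% confidence interval −0.57 to 0.56). TEAD2 had 10.56 and 10.64 under overexpression and 10.38 and 10.62 in control cells, with a log2 difference of 0.10 (standard error 0.23). The groups overlapped, since control replicate 2 was level with the overexpression arrays. TEAD3 had 9.04 and 8.95 under overexpression and 9.03 and 8.46 in control cells. Control replicate 2 was the lowest of the 4 arrays, and the log2 difference of TEAD3, 0.25 (standard error 0.26, 95% confidence interval −0.36 to 0.87), was −0.03 without that array. TEAD4, within the range of the negative control rows, had 6.84 and 6.76 under overexpression and 6.75 and 6.93 in control cells. Its log2 difference was −0.04 (standard error 0.23). For all 4 TEAD genes the groups overlapped.

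The LATS kinases inhibit YAP and TAZ. LATS1 had log2 signals of 13.06 and 13.22 on the overexpression arrays and 13.37 and 12.91 on the control arrays. The overexpression arrays lay between the control arrays, and the log2 difference was 0.0015 (standard error 0.25, 95% confidence interval −0.58 to 0.59). After quantile normalization the difference was −0.0088. LATS2, which is itself a transcriptional target of YAP, had 7.20 and 7.17 under overexpression and 6.98 and 6.87 in control cells. It was the only one of the 10 genes whose groups did not overlap, and it was higher under overexpression, as were 14.3% of all genes, while 15.1% were lower with no overlap. The log2 difference of LATS2 was 0.26 (standard error 0.22, 95% confidence interval −0.25 to 0.77, adjusted p = 1.00 from limma). Both arrays of each group were close, with SDs of 0.03 under overexpression and 0.08 in control cells (n = 2 each), whereas limma also draws on the variance of all rows. LATS2 had the same direction with any 1 array left out, from 0.21 to 0.31, which separated groups fix. Its signal lay within the range of the negative control rows.

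CCN1 and CCN2 had the largest differences of the 10 genes, and both rested on the low value of control replicate 2. CCN1 had log2 signals of 11.77 and 11.81 on the overexpression arrays and 11.89 and 10.77 on the control arrays. Control replicate 1 was thus the highest of the 4 arrays and control replicate 2 the lowest. The group means were 11.79 ± 0.03 under overexpression and 11.33 ± 0.79 in control cells (SD, n = 2 each). The log2 difference was 0.46 (standard error 0.36, 95% confidence interval −0.37 to 1.29, adjusted p = 1.00 from limma). Without control replicate 2 it was −0.10, and without control replicate 1 it was 1.02. CCN2 had 8.16 and 8.31 under overexpression and 8.40 and 7.49 in control cells, with the same order of control arrays. Its log2 difference was 0.30 (standard error 0.32, 95% confidence interval −0.45 to 1.04), −0.16 without control replicate 2 and 0.75 without control replicate 1. With control replicate 1 left out, the control group was 1 array, the low one, which is assumed to vary like the overexpression pair. In that comparison CCN1 and CCN2 were the 2 of the 10 genes that passed an unadjusted p below 0.05 in limma, as did 3.69% of the genes above the silent-gene level in the higher direction, and neither passed after adjustment (adjusted p = 0.937 for both). The direction of both genes thus turned with the control array that was used.

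**Figure D2:**
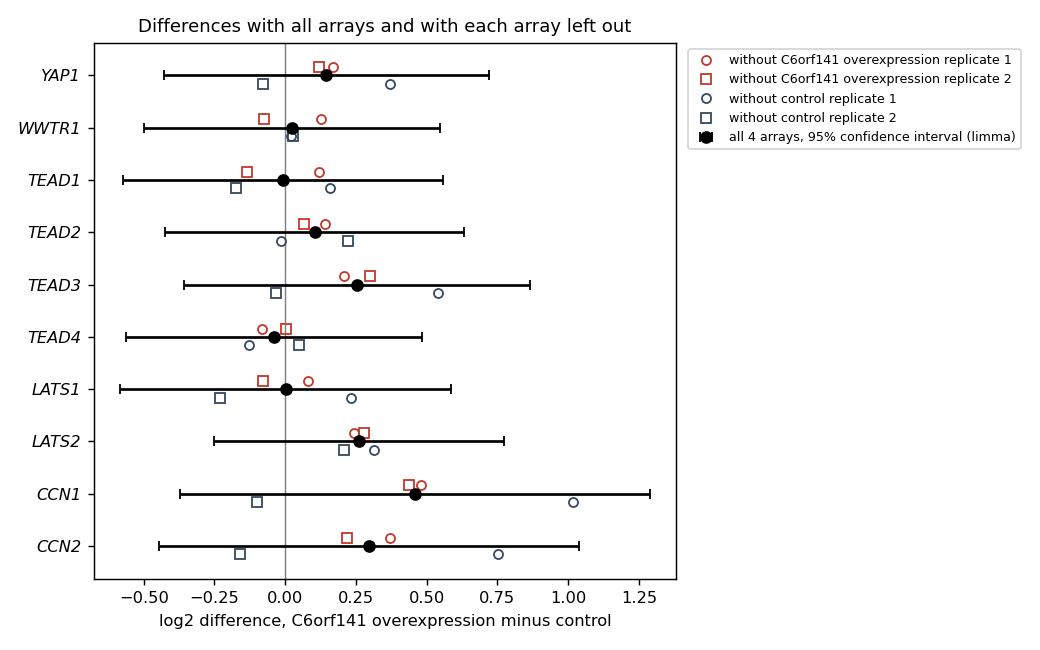
Log2 difference of each Hippo pathway gene, C6orf141 overexpression minus control. Black points are the differences over all 4 arrays with the 95% confidence interval from limma, and open marks are the differences with 1 array left out. Every interval includes 0, and CCN1 moves from −0.10 without control replicate 2 to 1.02 without control replicate 1.

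Most of the 10 genes varied more between the control arrays than between the overexpression arrays, with WWTR1 as the exception. From control replicate 1 to control replicate 2, 7 of the 10 had the lower signal on replicate 2 (YAP1, TEAD1, TEAD3, LATS1, LATS2, CCN1 and CCN2). This was also so for 56.9% of the 16214 genes above the silent-gene level. The median gap, replicate 1 minus replicate 2, was 0.39 for the 10 genes and 0.07 for the genes above that level. Between the overexpression arrays the median gap was −0.06 for the 10 genes and −0.04 for the genes above that level. The 2 overexpression arrays were 1.03-fold apart for CCN1, and the 2 control arrays 2.17-fold. Only 1.68% of the genes above the silent-gene level differed more between the control arrays. For CCN2 the overexpression arrays were 1.11-fold apart and the control arrays 1.88-fold, and 4.05% of these genes had a larger gap. For TEAD3 this share was 17.1%, for LATS1 25.7% and for YAP1 27.4%. At the other end 78.1% of these genes had a larger gap than LATS2, and 98.3% a larger one than WWTR1.

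**Figure D3:**
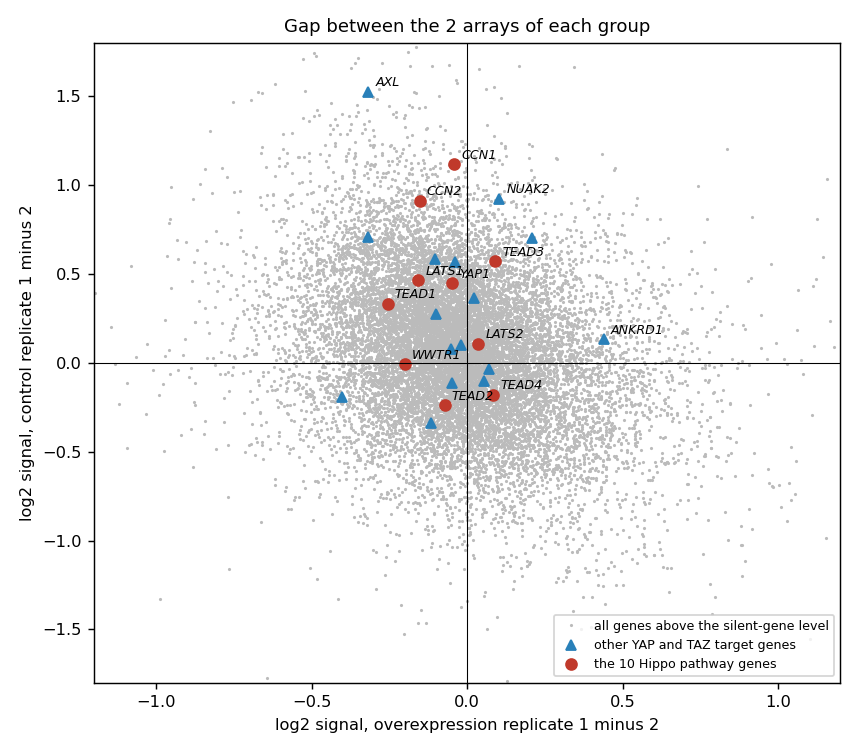
Gap between the 2 arrays of a group, in log2 signal, for overexpression (horizontal) and control (vertical). Red points are the 10 Hippo pathway genes, blue triangles the other YAP and TAZ target genes, and grey points the 16214 genes above the silent-gene level, of which 24 lie outside the axes. CCN1, at 1.12 between the control arrays, and AXL, at 1.52, lie far from 0 on the vertical axis and within 0.32 of it on the horizontal one.

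The control arrays were also farther apart than the overexpression arrays over the whole array. Gaps of over 2-fold were found for 43 of the 16214 genes (0.265%) in the overexpression pair and for 442 (2.73%) in the control pair. RNA spiked in before labelling, the poly-A controls, had log2 gaps (replicate 1 minus replicate 2) of −0.08 for dap, −0.12 for lys, −0.21 for phe and −0.67 for thr in the overexpression pair. In the control pair these were −0.35, 0.33, −0.17 and −0.60. For the hybridization controls bioB, bioC, bioD and cre, the overexpression gaps were −0.09, −0.0052, 0.03 and −0.02, and the control gaps 0.13, 0.02, 0.09 and 0.09. Of the poly-A controls, 3 of 4 were brighter on control replicate 2, where CCN1 and CCN2 were dimmer, and their part in the gap of these genes was not tested.

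The promoters are shown because TEAD proteins are known to bind GGAATG, and because CCN2 is a standard readout of YAP. RefSeq (GRCh38.p14) promoters from 250 bases before to 50 bases after the gene start were found for 7 of the 10 genes (YAP1, WWTR1, TEAD2, TEAD3, LATS1, LATS2 and CCN2), with 10 promoters in all, since some of these genes have several starts. CCN1, TEAD1 and TEAD4 had no entry. GGAATG was searched on both strands and was found in 3 of the 10 promoters, against 14.0% of all 35116 promoters of that length. The CCN2 promoter held 3 matches, starting at −169, −104 and −95 from the gene start. Only 45 promoters (0.128%) held 3 or more. It also held a TATAAA element at −32, searched on the coding strand only, which 7.33% of all promoters had. TGANTCA, bound by AP-1 and searched on both strands, was found in 1 of the 10 promoters, that of 1 start of LATS1, against 7.71% of all. The 3 promoters with GGAATG are printed on the gene's own strand, in capitals where these letters match. The CCN2 stretch lies at chr6:131951373-131951622 (minus strand, the 250 bases before the start), that of YAP1 at chr11:102110273-102110302 (plus strand, 30 bases) and that of LATS2 at chr13:21061560-21061589 (minus strand, 30 bases, beginning at −3 from the start).
CCN2: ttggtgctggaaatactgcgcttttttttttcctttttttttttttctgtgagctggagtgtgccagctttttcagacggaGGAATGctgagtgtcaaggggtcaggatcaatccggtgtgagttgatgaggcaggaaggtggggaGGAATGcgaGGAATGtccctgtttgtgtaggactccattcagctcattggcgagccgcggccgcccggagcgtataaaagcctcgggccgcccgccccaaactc
YAP1: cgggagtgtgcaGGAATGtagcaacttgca
LATS2: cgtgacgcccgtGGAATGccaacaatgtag
A match is a stretch of letters and no measured binding. Of the genes with it, CCN2 was lower on control replicate 2 by 0.91 on the log2 scale, YAP1 by 0.45 and LATS2 by 0.11. Of the genes searched that held none, TEAD3 was lower there by 0.57 and LATS1 by 0.46, while TEAD2 (−0.24, replicate 1 minus replicate 2) and WWTR1 (−0.0085) were not.

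The wider set of YAP and TAZ targets was counted to see whether CCN1 and CCN2 stood alone. The list held 22 genes, of which 19 were analysed, LATS2, CCN1 and CCN2 among them. All 19 were above the silent-gene level. None passed an adjusted or an unadjusted p below 0.05 in limma, 11 of the 19 differences were positive, and the median was 0.02. Without control replicate 2, 4 of the 19 were positive and the median was −0.08, where 43.3% of the genes above the silent-gene level were positive. Without control replicate 1, which leaves the low control array alone, 4 of the 19 passed the unadjusted threshold in the higher direction (CCN1, CCN2, AXL and NUAK2), with 3.69% of the genes above the silent-gene level doing so, and none passed after adjustment. The receptor tyrosine kinase gene AXL had log2 signals of 14.10 and 14.42 under overexpression and 14.30 and 12.77 in control cells. Control replicate 2 was again the low array, 2.88-fold below control replicate 1. The log2 difference of AXL, 0.72 (standard error 0.45), was −0.04 without control replicate 2 and 1.49 without control replicate 1. NUAK2, a kinase gene, had 8.03 and 7.93 under overexpression and 8.03 and 7.11 in control cells. Its difference was 0.41 with all arrays and −0.06 without control replicate 2. On that array the NUAK2 signal lay within the range of the negative control rows. ANKRD1, a cardiac ankyrin repeat gene and a common YAP readout, went the other way. It had 7.34 and 6.90 under overexpression and 7.76 and 7.62 in control cells, with no overlap between the groups. Its log2 difference was −0.57 (standard error 0.25, 95% confidence interval −1.15 to 0.00186, unadjusted p = 0.0506 and adjusted p = 1.00 from limma), and its mean of 7.40 lay within the range of the negative control rows. Without overexpression replicate 1 it was −0.79 and passed the unadjusted threshold, and without overexpression replicate 2 it was −0.35 and did not. ANKRD1 also passed with the trend and robust settings of limma (unadjusted p = 0.0444, adjusted p = 1.00). F3, which encodes tissue factor, had 16.42 and 16.40 under overexpression and 16.82 and 16.45 in control cells, a difference of −0.22 with no overlap, or −0.04 without control replicate 1 and −0.40 without control replicate 2. In all 2 of the 19 genes were higher and 4 lower with no overlap, against 14.3% and 15.1% of all genes. Of the 18 RefSeq promoters of this list, 9 held GGAATG, those of ANKRD1 and NUAK2 with 2 matches each. GGAATG was held by 14% of all 35116 promoters. The list was made of known YAP and TAZ targets, and the reason for its share was not tested. The remaining CCN family genes, CCN3 to CCN6, had differences from −0.25 to 0.07, and 1 of the 4, CCN6, was above the silent-gene level.

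**Figure D4:**
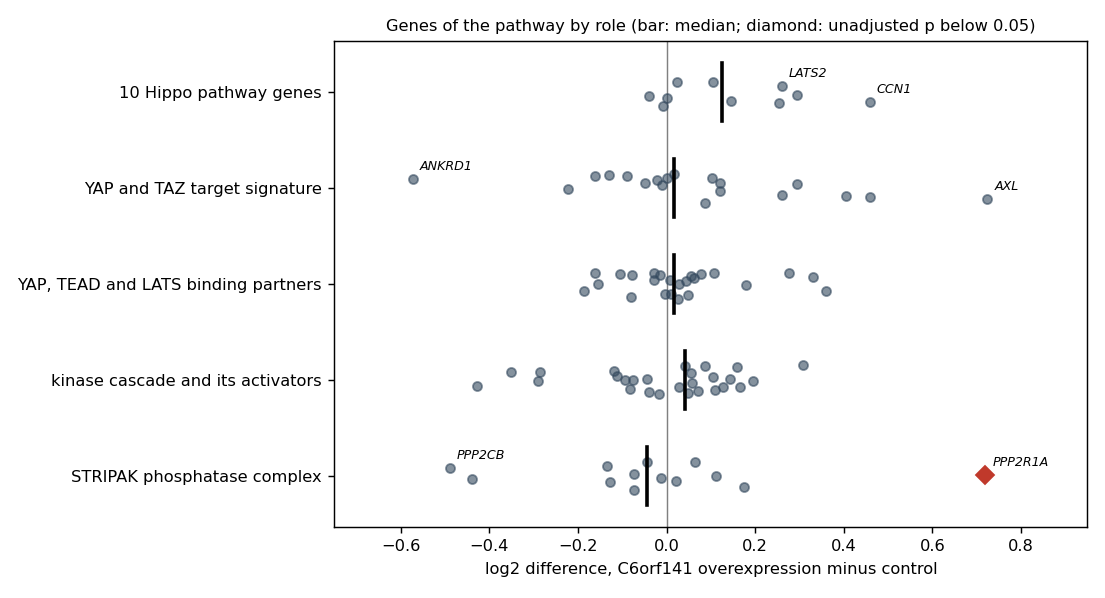
Log2 difference, C6orf141 overexpression minus control, of the 10 Hippo pathway genes and of 4 lists of pathway genes. Each point is a gene, and the bar is the median of its row. The diamond marks PPP2R1A (0.72), the only gene shown with an unadjusted p below 0.05. The test was limma over all 4 arrays, without block, trend or robust settings. The 10 Hippo pathway genes have a median of 0.12 and the other lists lie between −0.04 and 0.04.

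Upstream of LATS1 and LATS2 are the kinases STK3 and STK4 with the scaffold SAV1, the activators MOB1A and MOB1B, NF2 and the WWC proteins. Of 30 genes in this list 27 were analysed and 23 were above the silent-gene level. None passed an adjusted or an unadjusted p below 0.05 in limma, and the median difference was 0.04. With trend and robust settings STK4 did (unadjusted p = 0.0466 and adjusted p = 1.00 from limma). The smallest p-values were those of STK4 with −0.43 and of the scaffold gene WWC2 with −0.35. STK4 had log2 signals of 10.77 and 10.76 under overexpression and 11.28 and 11.10 in control cells. The groups did not overlap, and the difference was −0.51 without control replicate 2 and −0.34 without control replicate 1. WWC2 had 9.55 and 9.56 under overexpression and 9.87 and 9.95 in control cells, and SAV1 had 13.76 and 13.77 under overexpression and 13.99 and 14.11 in control cells. In both genes the overexpression arrays were the lower ones with no overlap, and the difference of SAV1 was −0.29. TAOK2, a kinase that can activate the cascade, had 8.36 and 8.45 under overexpression and 8.25 and 7.96 in control cells. Its groups did not overlap either, in the higher direction, with a difference of 0.31, or 0.16 without control replicate 2. In all 2 of the 27 genes were higher and 5 lower with no overlap, against 14.3% and 15.1% of all genes. RASSF6 had a difference of −0.29, or 0.016 without control replicate 1. STK3, the paralog of STK4, had 15.24 and 15.30 under overexpression and 15.05 and 15.73 in control cells, so its groups overlapped.

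The STRIPAK complex joins the phosphatase PP2A to STK3 and STK4 and keeps these kinases inactive. Of the 14 genes listed 13 were analysed, and all 13 were above the silent-gene level. In limma over all 4 arrays, without block, trend or robust settings, only 1 gene of the 4 lists passed the unadjusted threshold. This was PPP2R1A, the scaffold subunit of PP2A. It had log2 signals of 11.29 and 11.40 under overexpression and 10.58 and 10.67 in control cells, a difference of 0.72 (standard error 0.22, 95% confidence interval 0.20 to 1.23, unadjusted p = 0.0124 and adjusted p = 1.00 from limma), or 1.65-fold. Both control arrays were alike, unlike for CCN1. Without overexpression replicate 2 its difference was 0.67, and it no longer passed. With 1 called gene of 13 and 0.907% of the genes above the silent-gene level called, PPP2R1A was a single call in a list whose median was −0.04. The catalytic subunit gene PPP2CB had −0.49 and MOB4, a STRIPAK component, −0.44, both with no overlap between the groups. In this list 1 of 13 genes was higher and 3 were lower with no overlap, against 14.3% and 15.1% of all genes. PPP2CB had 10.82 and 11.08 under overexpression and 11.51 and 11.37 in control cells. MOB4 had 13.32 and 13.34 under overexpression and 13.70 and 13.84 in control cells. Both passed with the trend and robust settings (unadjusted p = 0.0307 for PPP2CB and 0.0179 for MOB4, adjusted p = 1.00 for both, from limma). STRN4 had a difference of 0.18, or 0.0095 without overexpression replicate 1, and SLMAP had −0.13, or −0.02 without control replicate 2.

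Proteins that bind YAP, TEADs or LATS formed the last list, with 24 of 28 genes analysed and 22 above the silent-gene level. None passed an adjusted or an unadjusted p below 0.05 in limma, and the median difference was 0.02. RUNX3, a transcription factor that can bind TEADs, had log2 signals of 8.21 and 8.55 under overexpression and 8.69 and 7.40 in control cells. LIMD1, a LATS-binding LIM protein, had 8.22 and 8.45 under overexpression and 8.49 and 7.46 in control cells. Both repeated the order of arrays seen for CCN1, with control replicate 2 the lowest. On that array both were under 7.72, the level of the negative control rows given above. The difference of RUNX3 was 0.33, or −0.32 without control replicate 2, and that of LIMD1 was 0.36, or −0.15 without it. Without control replicate 1, which leaves the low control array alone, the differences were 0.98 for RUNX3 and 0.87 for LIMD1. CSNK1D, a kinase that marks YAP for degradation, had 0.28, or −0.08 without control replicate 2. TP53BP2 had −0.19 and the YAP-binding phosphatase gene PTPN14 had −0.16, both with no overlap between the groups. In this list 5 of 24 genes were lower with no overlap, against 15.1% of all genes. Without overexpression replicate 1 TP53BP2 had −0.046, and without control replicate 2 PTPN14 had −0.11. VGLL1, VGLL3 and VGLL4, which bind TEADs in place of YAP, had differences of 0.03, 0.06 and 0.05, and VGLL2 was not above the silent-gene level.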

How the data were processed

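Clariom D arrays of SAS cells, 2 for C6orf141 overexpression and 2 for control, were grouped by their sample labels. The authors deposited 1 gene-level log2 value per transcript cluster and array, from RNA labelled with the WT PLUS reagent. The labels name Expression Console for these values, and the methods name Partek for the comparison at p below 0.05. For the summary algorithm, normalization, build and software versions, nothing was found in the paper, labels or file header. The log2 values were used as deposited (range 1.62 to 19.27 over the rows tested). Their number limits the precision.

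Of 138745 rows, 2995 array controls were left out. Of the remaining rows, 36176 have 1 gene symbol, 1119 several and 98455 none in the platform annotation, and 25516 were matched by gene number to RefSeq (GRCh38.p14). A gene was represented by its brightest row, which gave 33616 genes. A linear model with moderated variances, two-sided and without block (limma 3.58.1, R 4.3.3), was fitted over all 135750 rows, with Benjamini-Hochberg adjustment over the genes and a threshold of 0.05. The scripts were tested on simulated data. Named genes were all 10 members, C6orf141, the 5 genes above the silent-gene level with the smallest p in each of 4 lists, and any list gene past the unadjusted threshold. STK3, the VGLL genes and the markers were named after their values were seen. The members and lists were chosen with earlier results of these data known. Alternatives were quantile normalization, median centring, an equal-variance t-test, a variance trend with robust fitting, and only genes above the silent-gene level. Others were averaging a gene's rows, the replicate number as a block, and each array left out in turn. For the arrays the methods name no test.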

Additional observations from a re-analysis of the deposited data

How the results depend on the processing

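With 2 arrays a group, 1 array decides most values here, and TEAD4 and LATS2 are dim. No setting brought any of the 10 genes past an adjusted p below 0.05 in limma. The sign of LATS1 turned with quantile normalization (−0.0088). The equal-variance t-test gave 663 genes higher and 714 lower at an unadjusted p below 0.05, against 352 and 359 in limma. At that threshold it called 1 of the 10 genes, LATS2 (0.26). Of the named list genes it added STK4, WWC2, SAV1 and MOB4 at the unadjusted threshold, and none after adjustment. Keeping only genes above the silent-gene level gave 69 higher and 78 lower. Trend and robust settings gave 1 gene past the adjusted threshold, C6orf141, as did the replicate block (301 genes higher and 327 lower unadjusted). Trend and robust settings also added STK4, PPP2CB, MOB4 and ANKRD1 at the unadjusted threshold. Over all 33616 genes these settings gave 330 higher and 359 lower at that threshold. The labels and methods state no pairing behind the replicate numbers. Between arrays of the same number, the correlation of deviations was −0.112 for all genes and −0.268 for genes above the silent-gene level. Apart from C6orf141, the replicate block changed no call among the genes named in the text by rule. Crossed pairs, chosen after seeing the data, gave 1 gene past the adjusted threshold, 375 higher and 381 lower, AXL among the higher (unadjusted p = 0.0489 from limma).

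With 1 array left out, 210 to 931 genes were higher and 246 to 677 lower, and 0 to 2 of the 10 genes passed unadjusted, the 2 being CCN1 and CCN2 without control replicate 1. Log2 differences ranged from −0.079 to 0.37 for YAP1, −0.076 to 0.12 for WWTR1, −0.17 to 0.16 for TEAD1, −0.016 to 0.22 for TEAD2, −0.032 to 0.54 for TEAD3, −0.13 to 0.050 for TEAD4, −0.23 to 0.23 for LATS1, 0.21 to 0.31 for LATS2, −0.10 to 1.02 for CCN1 and −0.16 to 0.75 for CCN2. They ranged from −0.59 to 0.016 for RASSF6, −0.15 to 0.87 for LIMD1, −0.080 to 0.63 for CSNK1D, −0.32 to 0.98 for RUNX3, −0.038 to 1.49 for AXL and −0.056 to 0.87 for NUAK2. With the sign kept they ranged from 0.16 to 0.45 for TAOK2, 0.0095 to 0.34 for STRN4, −0.24 to −0.02 for SLMAP, −0.33 to −0.046 for TP53BP2, −0.22 to −0.11 for PTPN14, −0.79 to −0.35 for ANKRD1 and −0.40 to −0.04 for F3. List medians ranged from −0.061 to 0.058 for the kinase cascade, −0.13 to 0.0095 for STRIPAK, −0.088 to 0.089 for the binding partners and −0.079 to 0.20 for the targets. The cause was not tested.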
